A study of Mus musculus with 34 samples.

Results

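The regions described here are the stretches of the mouse genome that were open in every library outside medium. Peaks of chromatin accessibility on chromosomes 1 to 19 were merged wherever peaks of 30 libraries shared at least 1 bp, which gave 240158 regions. A region was kept when each of the 30 libraries had a peak in it, and 1907 regions were. The members were thus chosen by the presence of peaks in the 30 lists, so their presence and their heights there are given as a description with no test. The 4 libraries of cells kept in medium took no part in the choice.

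The data were ATAC-seq peak lists, in which a transposase marks open DNA, from sorted mouse hair follicle stem cells (HFSCs). By the study's description, wild-type cells were sorted by surface CD34 and integrin α6. For Rxra WT and Rxra cKO cells the fluorescent reporter YFP took the place of CD34. In vivo the groups were wild-type cells of full anagen (AnaVI, the growth stage, n = 2), wild-type cells of late catagen (CatVII, the regression stage, n = 6), and CatVII cells labelled Rxra WT (n = 4) or Rxra cKO (n = 3). The cKO carried Sox9-creER, Rxra fl/fl and R26-YFP, so tamoxifen removed the retinoid X receptor α only from cells in which Sox9 had driven Cre. The Rxra WT cells are described with the sorting as Rxra +/+, also with Sox9-creER and R26-YFP. In culture, HFSC lines from resting follicles, grown with feeder fibroblasts, were Rxra WT or Rxra cKO, and both kinds carried Sox9-creER and R26-YFP, with Cre switched on by 4-hydroxytamoxifen. Rxra WT cells received medium (n = 2), apoptotic corpses made from HFSCs with cisplatin (n = 4), corpses treated with BEL, which blocks the calcium-independent form of phospholipase A2 (n = 4), or a mix of arachidonic acid, lysophosphatidylcholine and retinoic acids (called AA, LPC and RA, n = 2). For Rxra cKO there were 2 libraries in medium, 3 with corpses and 2 with AA, LPC and RA. The peak names stored in the lists tag CatVII wild type replicates 1 to 3 Phago and 4 to 6 NonPhago, so that group pools both tags. CatVII Rxra WT replicates 2 to 4 are stored as P37 NonPhago 4 to 6, which continues the numbering of the wild-type libraries. Its replicate 1 is stored with P42, as are the 3 CatVII Rxra cKO libraries. The age of the animals and the number of lines behind the cultured libraries are not given in the labels. Titles of the CatVII Rxra libraries carry an m and a number and the other titles a replicate number alone, which does not show whether each came from an animal or a culture of its own. In CatVII Rxra cKO, replicates 2 and 3 both carry m2 in the peak names stored in their lists, 1 tagged NonPhago and 1 Phago, so these 3 libraries may not be 3 animals. The p-values therefore measure the spread between libraries, which may in part be technical.

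A promoter is the stretch beside a transcription start where RNA polymerase II and its general factors assemble. Promoters of genes that every cell uses, such as those for ribosomes, chaperones and the respiratory chain, commonly lie in CpG islands, DNA rich in unmethylated CpG that tends to stay free of nucleosomes whatever the cell type. Enhancers lie farther off and differ more between cell types, and in keratinocytes many of them carry sites for AP-1, the dimer of FOS and JUN proteins.

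Sequences around the median summit are printed first, because the location of the regions is written in them. They are the plus strand of mm39, 5′ to 3′, moved where needed so that no exon of the canonical transcript of a protein-coding gene is included. Capitals mark matches to one of 18 motifs, on either strand. The first set holds promoters among those whose strength varied least over the 30 libraries.
Hsd17b7 and 3110045C21Rik (chr1:169796814-169797013): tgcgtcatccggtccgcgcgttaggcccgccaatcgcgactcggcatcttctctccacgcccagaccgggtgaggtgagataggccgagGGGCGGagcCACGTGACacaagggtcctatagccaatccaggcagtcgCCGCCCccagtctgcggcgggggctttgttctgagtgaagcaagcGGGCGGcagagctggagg
Gcsh (chr8:117720277-117720476): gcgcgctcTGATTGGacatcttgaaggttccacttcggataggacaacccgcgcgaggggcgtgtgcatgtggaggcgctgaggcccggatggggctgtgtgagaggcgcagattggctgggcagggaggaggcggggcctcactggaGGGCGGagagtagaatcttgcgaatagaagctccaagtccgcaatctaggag
In the Hsd17b7 promoter the capitals are 3 GC boxes (GGGCGG, the site of SP1-like factors) and an E-box (CACGTGAC). In the Gcsh promoter they are a CCAAT box read on the other strand (CCAATCA, the site of NFY) and a GC box. The second set holds regions away from promoters. Cc2d2a lay in an intron and was among the strongest of them whose sequence aligned nowhere else. Tor3a, also in an intron, varied most among all regions that aligned nowhere else, and the region near Zfp703 was stronger in corpse culture than in vivo.
Cc2d2a (chr5:43849941-43850140): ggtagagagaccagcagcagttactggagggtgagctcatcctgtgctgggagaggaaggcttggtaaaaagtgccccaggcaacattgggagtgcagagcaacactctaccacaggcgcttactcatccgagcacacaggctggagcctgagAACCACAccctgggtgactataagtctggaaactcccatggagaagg
Tor3a (chr1:156495110-156495309): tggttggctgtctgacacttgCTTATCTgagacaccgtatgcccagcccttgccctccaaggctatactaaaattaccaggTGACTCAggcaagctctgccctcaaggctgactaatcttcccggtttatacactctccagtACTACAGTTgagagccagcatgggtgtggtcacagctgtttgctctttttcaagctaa
Zfp703 and 2310008N11Rik (chr8:27377247-27377446): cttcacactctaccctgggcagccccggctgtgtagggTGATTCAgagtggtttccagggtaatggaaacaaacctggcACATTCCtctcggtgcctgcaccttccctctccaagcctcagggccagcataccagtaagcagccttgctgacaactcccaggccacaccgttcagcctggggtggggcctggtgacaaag
The capitals in Cc2d2a are a motif of RUNX factors, spelled TGTGGTT. Those in Tor3a are, from left to right, a motif of GATA factors, spelled AGATAAG and read on the other strand here, then one of the AP-1 dimer, spelled TGANTCA, and last one of the factor ZNF143, spelled ACTACANTT. Near Zfp703 they are motifs of AP-1 and of TEAD factors, the latter spelled GGAATGT and read on the other strand here. The third set begins with the strongest region in an intron, which aligns elsewhere in the genome. It is named for the nearest start, that of the gene model Gm44436, 33248 bp away. After it comes the strongest region outside promoters that aligned nowhere else, nearest to the start of Gm55440.
Gm44436 (chr6:103626072-103626271): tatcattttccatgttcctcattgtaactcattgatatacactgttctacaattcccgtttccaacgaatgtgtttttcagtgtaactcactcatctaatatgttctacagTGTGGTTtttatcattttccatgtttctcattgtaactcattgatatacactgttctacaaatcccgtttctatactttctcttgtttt
Gm55440 (chr17:36542208-36542407): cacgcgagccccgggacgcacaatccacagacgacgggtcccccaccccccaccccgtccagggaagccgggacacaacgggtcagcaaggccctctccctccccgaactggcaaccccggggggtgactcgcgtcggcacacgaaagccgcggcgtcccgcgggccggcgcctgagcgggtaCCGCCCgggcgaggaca
Gm44436 holds 3 CpG in 200 bases at a GC content of 32.5%, and Gm55440 holds 26 CpG at 74.5%. The last set holds an intron of the autophagy receptor gene Sqstm1 and the promoter of Amz2, which were weaker in corpse culture than in vivo.
Sqstm1 (chr11:50100997-50101196): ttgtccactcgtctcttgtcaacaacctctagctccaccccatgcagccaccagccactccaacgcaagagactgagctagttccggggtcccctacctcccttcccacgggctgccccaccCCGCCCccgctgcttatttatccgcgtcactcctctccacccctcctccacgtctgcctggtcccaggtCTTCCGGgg
Amz2 (chr11:109316539-109316738): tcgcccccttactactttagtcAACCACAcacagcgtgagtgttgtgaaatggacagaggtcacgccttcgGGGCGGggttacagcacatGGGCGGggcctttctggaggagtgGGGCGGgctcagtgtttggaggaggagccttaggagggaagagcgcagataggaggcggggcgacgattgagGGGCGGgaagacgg
Sqstm1 carries a GC box and an ETS motif (CCGGAAG) here, and Amz2 carries 4 GC boxes and a RUNX motif.

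Most of the shared regions were promoters. Of the 1907, 1652 (86.6%) had their summit within 1 kb of a transcription start of an annotated gene other than a pseudogene, and 1552 (81.4%) of a protein-coding gene. In the 39947 regions with a peak in 15 to 29 libraries the promoter share was 32.3%, and in the 198304 with a peak in 1 to 14 it was 8.69%. The others lay in introns (143), between genes (98), in coding exons (3) or in other exons (11). The median distance to a start was 60 bp for the shared regions, 4830 bp for the regions of 15 to 29 libraries and 12037 bp for the rest. The summit sat just before the start, at a median of -15 bp along the gene among promoter members, with 40.6% of the summits downstream of it.

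The share of promoters rose with the number of libraries up to the limit. Regions of 28 libraries (2248) were promoters in 72.8%, had a median fold enrichment over local background of 11.6 and a median width of 1218 bp. Those of 29 libraries (2208) were promoters in 79.5% with a median fold of 12.3 and a width of 1282 bp, and the shared regions had a median fold of 13.5 and a width of 1314 bp. Of the regions that missed a single library, 954 missed AnaVI replicate 1, 606 missed CatVII wild type replicate 3, 348 missed AA, LPC and RA Rxra WT replicate 3 and 202 missed CatVII wild type replicate 6, which are among the lists with the fewest peaks. Which regions were shared thus turned on some of the shortest lists, and without AnaVI replicate 1 there were 2861 shared regions.

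**Figure D1:**
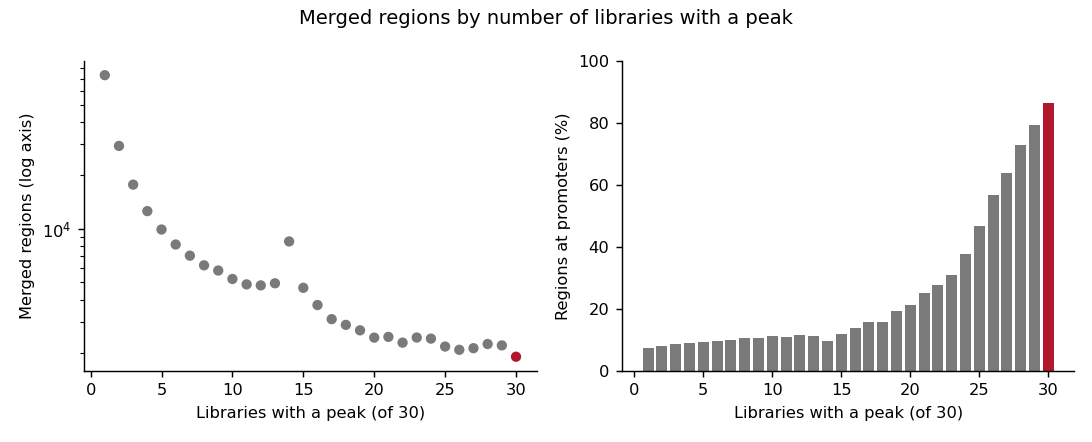
Left, number of merged regions (log axis) and right, percent of them at promoters, against the number of libraries outside medium with a peak (of 30). Red marks the 1907 regions with a peak in all 30, of which 86.6% were at promoters, against 79.5% at 29 libraries and 72.8% at 28.

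A merged region is not always 1 shared site. In 1502 regions (78.8%) the 30 peaks had at least 1 bp in common, and in 788 (41.3%) at least 100 bp. Widths ran from 238 to 5818 bp, the widest being the ribosomal RNA copy Rn18s-rs5.

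The DNA of these regions was CpG-rich. A window of 300 bp at the summit had a median GC content of 63%, against 51% at 15 to 29 libraries and 46% below that, and 1460 regions (76.6%, against 21.6% and 2.42%) met a CpG island rule of at least 50% GC and a CpG ratio of at least 0.6 observed over expected. Among promoters alone the shares were 86%, 61.4% and 14.1%, so the order held within that class. In 225 regions (11.8%) starts of 2 protein-coding genes on opposite strands shared the region, against 1.6% and 0.0393% in the classes of fewer libraries. Among 306 regions more than 1 protein-coding gene had a start within 1 kb.

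Motif content split along the same line. Among promoters a GC box stood in 79.4% of the shared windows, against 56.6% of those in 15 to 29 libraries and 19.8% in fewer. The CCAAT box, on which NFY sits, stood in 23.8%, 8.31% and 4.1%, and the ETS motif in 20.3%, 14.8% and 2.59%. NRF1 (GCATGCGC) stood in 5.45% and 4.51%, YY1 (AAGATGGC) in 5.63% and 4.11%, ZNF143 in 3.93% and 2.04%, CRE (TGACGTCA) in 3.69% and 3.11%, and the E-box in 3.93% and 3.58% of shared promoters and promoters of 15 to 29 libraries. AP-1 went the other way, with 5.87% of shared promoters against 15.4% and 21.8%. The motifs of CTCF and of p53/p63 were also less common in shared promoters (2.66% against 4.81%, and 0.908% against 1.96%), as were RUNX (2.6% against 4.58%), TEAD (2.12% against 3.56%), SOX (AACAATG, 1.15% against 2.23%), GATA (1.09% against 1.96%) and LIM homeodomain (CTAATTA, 0.605% against 1.03%).

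Away from promoters the shared regions were close to the regions of 15 to 29 libraries in AP-1, but not in the GC box or CTCF. AP-1 stood in 42% of the 255, against 45% at 15 to 29 libraries and 28.3% at fewer, and the GC box in 20%, 9.4% and 5.42%. The CTCF motif, common at insulators, stood in 1.57% of them against 8.28% at 15 to 29 libraries. The direct repeat that RXR binds with the retinoic acid receptors was in 0 of the 1907 windows (0.0619% of promoters and 0.137% of other regions at 15 to 29 libraries), and the repeat that RXR binds with itself in 2. These are counts of letters in a window, and windows of a given class also differ in GC content.

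Genes were read from the promoter members. A protein-coding gene was at the nearest start in 1275 promoter members and a long non-coding RNA gene in 352, and by any start within 1 kb, 1867 of 20604 autosomal protein-coding genes (9.06%) had a shared region. That share is the background for the gene lists, which are described by counts alone. Genes with a promoter region of at least 15 libraries made up 56.3%.

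Genes of protein folding and of the histone clusters were the most often included. Of 67 replication-dependent histone genes, which package newly made DNA, 23 (34.3%) had a shared region, among them H2ac12 and H2bc12, which share a start region. Of 81 chaperonin and heat shock genes 23 (28.4%) did, with the strongest at Hspa13 and Hspa14 (median fold 18.8 and 18.3) and Tcp1, a chaperonin subunit, at 16.8. Of 55 Rab GTPase genes, which steer vesicles, 14 (25.5%) did, including Rab5b and Rab5a of early endosomes (16.4 and 11.4) and Rab14 (14.1).

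Translation, splicing and respiration were represented at shares between those and the background. Counts were 7 of 34 aminoacyl-tRNA synthetases (20.6%), 14 of 77 splicing factors, 14 of 83 cytoplasmic ribosomal proteins (16.9%), 13 of 78 mitochondrial ribosomal proteins (16.7%) and 13 of 79 subunits of the respiratory chain and ATP synthase. RNA polymerase II and general factors (9 of 71), the proteasome (6 of 48), translation initiation factors (8 of 68, 11.8%) and C2H2 zinc finger genes (45 of 404, 11.1%) lay closer to 9.06%. A promoter region of at least 15 libraries, all 30 included, was found for 95.2% of ribosomal protein genes and 82.2% of zinc finger genes. Of 15 commonly used reference genes, B2m, Eef1a1, Polr2a and Ywhaz had a shared region, and 15 had one of at least 15 libraries by the same count.

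Within lists the strength differed between members. Among ribosomal proteins the median fold ran from 17.1 at Rpl22l1 and 15.5 at Rpl15 to 11.4 at Rps12, and among the respiratory genes 18.3 at Atp5f1e, a small subunit of ATP synthase, stood above 12.7 at Atp5pf. Mrps14 (18.4) and Med23, of the Mediator complex (17.3), were high in their lists, whereas Polr2a, the largest subunit of RNA polymerase II, was at 10.3. The 10 strongest histone promoters had median folds of 12.1 or less.

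Genes of hair follicle stem cell identity were included at a share of 12%, beside the 9.06% of all genes. Of 25, Klf5, Foxc1 and Itga6 had a shared region, at median folds of 11.4, 9.85 and 9.05, and 22, these among them, had a promoter region of at least 15 libraries. Sox9, Lhx2, Tcf7l1 and Nfatc1, regulators of the bulge, had no shared region. Of 54 keratin genes and 108 keratin-associated genes 0 had one, and of olfactory (1180) and vomeronasal (350) receptor genes also 0.

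Genes of corpse clearance fell in short lists, given beside the 9.06% of all genes. The actin machinery of the phagocytic cup had 5 of 24 (20.8%), Abl1, Dock4, Actr2, Elmo2 and Elmo3, and phagosome maturation 5 of 29 (17.2%). The lysosome had 3 of 22 (13.6%), Npc2, Atp6v0d1 and Atp6v1a, the cholesterol carrier and proton pump subunits. The bridging proteins had 1 of 11 (9.09%), Anxa5. The receptors that recognise apoptotic cells, such as Mertk and Axl, had 0 of 19. A list of that length would hold few genes at the background share, so nothing is read from its lack of members. Of 23 genes of the retinoid pathway Dgat1 and Rdh10 had a shared region (median fold 15.4 and 7.87) and Rxra did not, and of 24 genes of lipid handling 2 did, Lpcat3 among them. Stress and wound genes had 4 of 22 (Stat3, Mdm2, Cebpd and Klf6), AP-1 factors 2 of 10 (Fosl2 and Jun, at low median folds of 7.55 and 7.34) and the cell cycle 2 of 26 (Ccna2 and E2f3).

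**Figure D2:**
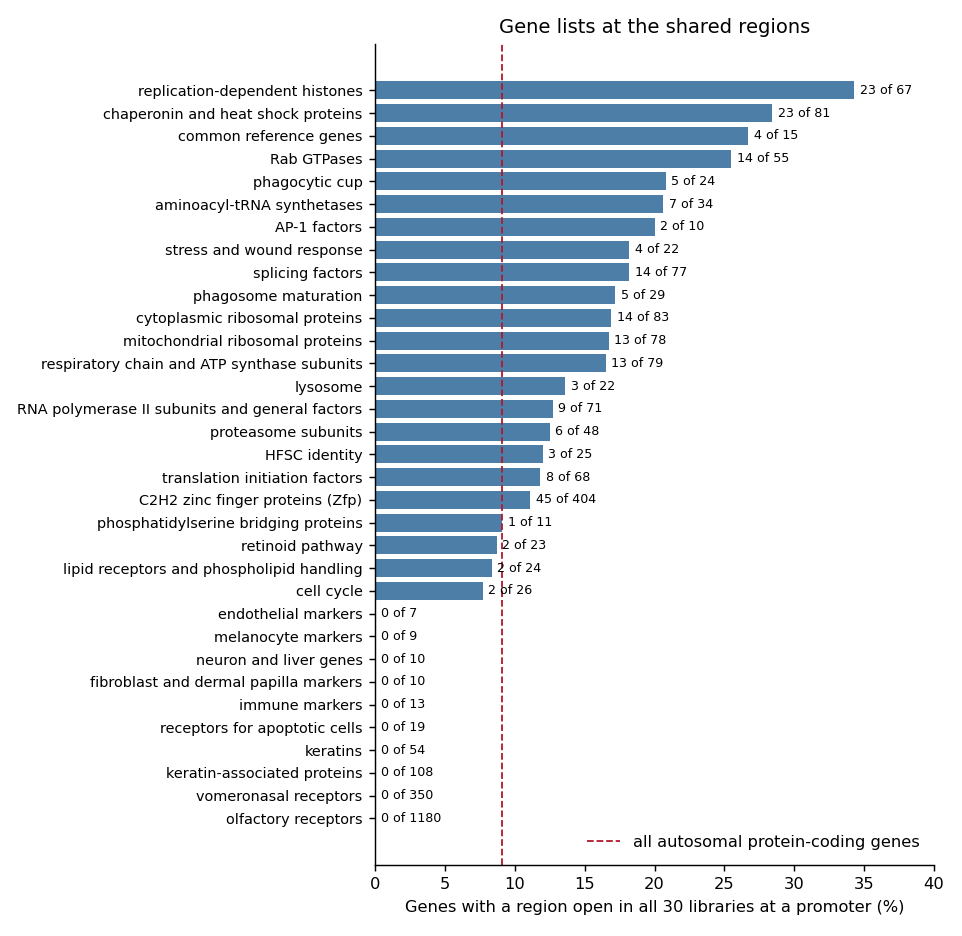
Percent of the autosomal protein-coding genes of each list with a region open in all 30 libraries at a promoter, with the counts beside the bars. The dashed line is the 9.06% of all autosomal protein-coding genes, and histones (34.3%) and chaperones (28.4%) stand highest.

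Markers of other cell types were absent from the set. Melanocyte (9), fibroblast and dermal papilla (10), immune (13), endothelial (7) and neuron or liver (10) genes had 0 shared regions each. Lists this short would hold few genes at the background share of 9.06%, so nothing is read from these zeros. Their promoters had a region of at least 15 libraries in 2, 2, 2, 2 and 1 of these genes.

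Strength is given below as the log2 fold enrichment of a region's best peak, less the median of that value over the 1907 regions in the same library. It ran from -2.32 to 2.17 in medians over the 30 libraries among regions of unique sequence, with the middle 50% between -0.19 and 0.17. Promoters (median 0.02) and other regions (-0.09) were close, and CpG-rich promoters (0.02) were close to the other promoters (-0.01). The SD over libraries had a median of 0.25 at promoters and 0.31 elsewhere.

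Most of the strongest regions had sequence that recurs in the genome. Of the 20 strongest, 19 had a summit window that aligned elsewhere in the genome, at 80% identity or more over at least 100 bases, against 192 (10.1%) of all members. They included Gm44436 (median fold 52.3, 98.1% identity to another place), a region named for Limd1 that lies in an exon of Lars2 (50.9), Gm33838 (44.1) and the mitochondria-like Gm42862 and Gm67838 (47 and 46.1). Gm44436 reached folds of 94.3 and 65.4 in AnaVI, 42.4 to 50.6 in CatVII wild type, 63.2 to 94.8 in Rxra WT corpse culture and 45.5 to 46.2 with BEL-treated corpses, and was in all 4 medium libraries at 33.1 to 37. Such regions were strong in every group, and where a read aligned to several copies its place is uncertain. Among regions outside promoters 67 of 255 (26.3%) aligned elsewhere, and among promoters 125 (7.57%).

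With sequence that aligned nowhere else, the strongest promoters of protein-coding genes were Exoc4, a subunit of the exocyst that tethers vesicles (median fold 19.1), Cfdp1 (19.7), the ubiquitin ligase Herc2 (19.5), Zfp866 (20.1) and Tasp1 (19.3), with strengths of 0.55 to 0.50. Herc2 was in all 4 medium libraries. Outside promoters Gm55440 led with a strength of 1.03 and 10.5 to 39.6 fold over the 30 libraries, followed by the intron of Cc2d2a, a gene of the ciliary transition zone (0.53), and by Gm59842 near Larp4b (0.36). Cc2d2a stood at strengths of 0.64 to 0.93 in Rxra WT corpse culture and 0.86 to 0.94 in Rxra cKO corpse culture, and at 0.16 to 0.47 in CatVII Rxra WT. These ranges do not overlap, but this is 1 region picked for its strength and no test of it is given here. Culture and batch cannot be told apart in it.

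The weakest members of unique sequence, judged by how often their 25-base words recur in the genome, were the ribosomal RNA copy Rn18s-rs5 (strength -2.32, median fold 2.81) and Gm75300 (-1.31). Both still aligned elsewhere. The best match of Rn18s-rs5 was at 87.7% identity, with mismatches that exact words do not allow. That of Gm75300 was at 100%, and the rule for unique sequence allows fewer than 10 other places per word. Sfi1, a centrosome gene, had a strength of -1.21, an intergenic region 8982 bp from Klf6 -1.20 and the corepressor gene Sin3a -1.11. The strength of Sfi1 was -1.35 ± 0.53 (SD, n = 6) in CatVII wild type and -1.04 ± 0.07 (n = 4) in Rxra WT corpse culture, which differ by less than the spread. Its mean was lower in Rxra cKO than in Rxra WT in each setting. It was -2.19 ± 0.18 against -1.15 ± 0.59 in CatVII and -1.55 ± 0.24 against -1.04 ± 0.07 with corpses. With AA, LPC and RA it was -1.69 ± 0.10 against -0.93 ± 0.26. The limma comparisons of Rxra cKO with Rxra WT, in CatVII and under corpses, did not call it.

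Among the least variable promoters were those of Cyb5a, cytochrome b5 (SD 0.11), Hsd17b7, of sterol synthesis (0.13), Gcsh, of glycine cleavage (0.14) and Nudt21, of RNA 3′ end processing (0.14). Hsd17b7 had strengths of 0.24 to 0.66 in CatVII wild type and 0.14 to 0.42 in its Rxra WT counterpart, 0.20 to 0.44 in Rxra WT corpse culture and 0.35 to 0.51 with BEL-treated corpses. These ranges overlap between the groups. Among regions aligning nowhere else the most variable was an intron of Tor3a, 6716 bp downstream of its start (SD 0.59). Its strength was 0.65 to 0.80 in Rxra WT and 0.76 to 1.04 in Rxra cKO corpse culture, 0.38 to 0.52 with BEL-treated corpses, and -0.56 to 0.22 in CatVII wild type. Replicate 1 of CatVII Rxra WT had -1.08 and the other three 0.02 to 0.45, and in CatVII Rxra cKO it was -1.01, -1.14 and -0.20. In the peak names stored in the lists, replicate 1 and the 3 cKO libraries carry the tag P42 and the other three P37, and the 3 lowest values of all 30 libraries were in libraries tagged P42. The part of the tag was not tested.

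How much of the strongest signal the shared regions took differed between groups. Strongest here means the 1000 peaks of each list with the highest −log10 p. Of these, 59.6% ± 8.23 (SD, n = 6) lay in the shared regions in wild-type CatVII and 55.4% ± 5.80 (n = 4) in CatVII Rxra WT. The share was 55.5% ± 7.60 (n = 3) in CatVII Rxra cKO and 41.9% ± 7.28 (n = 2) in AnaVI. In culture it was 35.9% ± 6.98 (n = 4) and 35.2% ± 2.44 (n = 3) with corpses in Rxra WT and cKO, against 56.0% ± 1.29 (n = 4) with BEL-treated corpses and 55.6% ± 0.849 and 59.1% ± 0.495 (n = 2 each) with AA, LPC and RA. The corpse libraries, at 28.8 to 45.5%, lay below all libraries with BEL-treated corpses, at 54.7 to 57.3%. The shortest peak, which equals the mean fragment length that the caller used, was 144 to 145 bp in the BEL libraries and 60 to 104 bp in the Rxra WT corpse libraries, and its part in the difference was not tested. Of all peaks of a list 2.06 to 24.9% lay in the shared regions, the highest share in the shortest list. Within groups the strengths of pairs of libraries correlated across regions at r of 0.95 to 0.97 with BEL-treated corpses, 0.63 to 0.92 with corpses and 0.54 to 0.82 in CatVII wild type, as a description over regions that are not independent.

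The medium libraries are the independent view of these regions. They hold 4144 to 5740 peaks each, the shortest lists of all, at an estimated 3830809 to 4762131 fragments. Libraries outside medium with 2278742 to 4021598 fragments hold 13362 to 77784 peaks. Most absences in medium cannot be told from the shortness of the lists, whose cause was not tested. Of the 1907 regions, a peak stood in 44.4% (95% Wilson interval 42.2 to 46.7%) in Rxra WT medium replicate 3, 33% (30.9 to 35.1%) in replicate 4, 69.7% (67.6 to 71.7%) in Rxra cKO medium replicate 1 and 36.2% (34.1 to 38.4%) in replicate 2. Regions of 15 to 29 libraries had a peak in 3.48%, 2.23%, 6.84% and 2.07%. The mean of Rxra cKO exceeded that of Rxra WT by 14.2 percentage points, with an exact two-sided permutation p of 0.667, where 2 against 2 cannot go below 0.33. The intervals cover counting error alone.

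By number of medium libraries, 369 shared regions had a peak in none, 488 in 1, 438 in 2, 317 in 3 and 295 in 4. Promoters that aligned nowhere else had a peak in 43.5%, 31.5%, 73.2% and 35.7% of cases in the 4 libraries in the same order, and other regions that aligned nowhere else in 29.3%, 22.3%, 34% and 14.4%. Among regions that aligned nowhere else, promoters were thus found more often than the others in each medium library. Over all members the order differed between libraries, with 44.3%, 32%, 72.9% and 36.4% of the 1652 promoters against 45.1%, 39.6%, 48.6% and 34.9% of the 255 others. Regions outside promoters that aligned elsewhere were found in 88.1 to 92.5%, and 56 of these 67 were in all 4. Of the 107 regions outside promoters with an AP-1 motif, 2 were in all 4, and 52 (48.6%) in any.

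**Figure D3:**
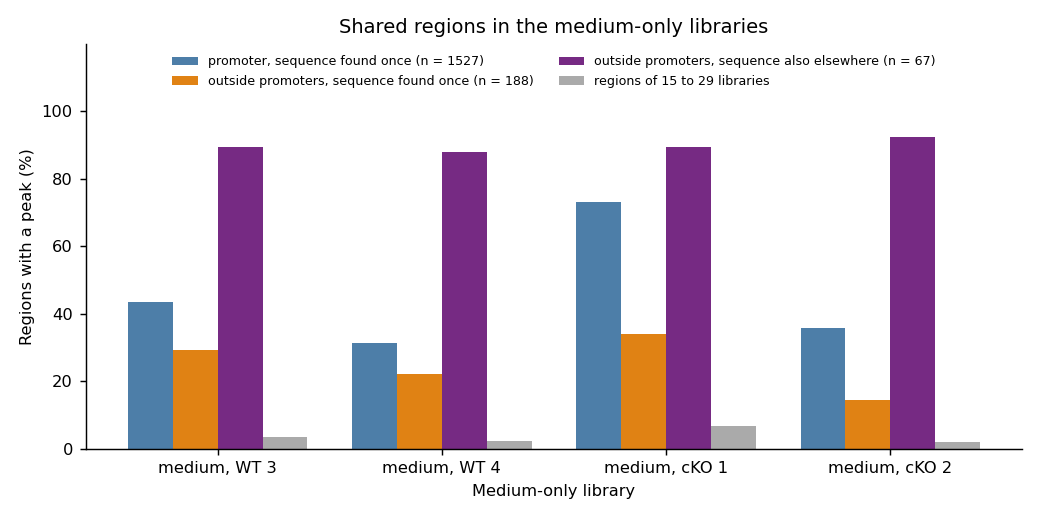
Percent of regions with a peak in each of the 4 medium libraries, for 1527 promoters and 188 other shared regions whose window aligned nowhere else, 67 other shared regions that aligned elsewhere, and the regions of 15 to 29 libraries. The repeated sequences stand at 88.1 to 92.5% throughout and the regions of 15 to 29 libraries at 2.07 to 6.84%.

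Differences in strength between conditions were tested with limma on quantile-normalised log2 fold over every region with a peak in all libraries compared, and adjusted p-values (Benjamini-Hochberg) are over all of them. Comparisons that share the corpse libraries are not independent of each other. Values below are log2 fold enrichment after this normalisation. The regions named in each comparison were chosen, among called regions of unique sequence, as those with the greatest difference whose groups did not overlap, so the lack of overlap in them comes from the choice.

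In wild-type cells, 20 of the 1907 regions were higher in CatVII than in AnaVI and 7 lower. Of the 2368 regions tested, 1.18% were called higher and 0.422% lower, against 1.05% and 0.367% of the shared regions, but the 1907 are most of the 2368 and nothing is read from the comparison. Differences ran from 0.79 to 1.83 among the 20 higher regions, of which 7 were not of unique sequence and 9 aligned elsewhere. The non-coding gene Dancr had values of 2.97, 3.56, 2.93, 3.38, 3.38 and 3.24 in CatVII and 1.67 and 2.65 in AnaVI, a difference of 1.08 (SE 0.25, adjusted p = 0.0426). Gm64095, beside the cap methyltransferase gene Cmtr2, had 3.55 to 3.84 in CatVII against 2.70 and 2.77 (difference 0.92, SE 0.18, adjusted p = 0.0171). On the other side Wbp1 had 2.78 to 3.44 in CatVII against 4.14 and 4.14 in AnaVI (-1.03, SE 0.20, adjusted p = 0.0211), and Mvd, a step of cholesterol synthesis, 2.44 to 2.69 against 3.49 and 3.32 (-0.85, SE 0.18, adjusted p = 0.0266). Gm57122 beside Pcmtd1 (1.08), Mthfs (1.00) and Gm527 (0.90) were also higher, and Chchd2 (-1.06), Arhgap19 (-1.02) and Ganab (-0.85) lower. AnaVI replicate 1 has an estimated 2278742 fragments, the fewest of all libraries. Without it 5 regions were higher and 0 lower, and without AnaVI replicate 2 the counts were 34 and 18. The difference at Dancr was 0.58 without AnaVI replicate 1, which did not pass, and 1.53 without AnaVI replicate 2. At Mthfs, Chchd2 and Arhgap19 it ran from 0.59 to 1.38, from -1.43 to -0.67 and from -1.44 to -0.59 in the same way. Leaving out a CatVII library gave 8 to 18 higher and 0 to 3 lower. In the stored names the CatVII libraries carry the tags Phago or NonPhago and the AnaVI libraries neither, and the part of these tags was not tested.

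Deletion of Rxra was compared in vivo and under corpses. In CatVII 0 shared regions passed in either direction between Rxra cKO and Rxra WT, with a background of 0% higher and 0% lower of 19891 regions, and 82 shared regions had an unadjusted p under 0.05. Without CatVII Rxra WT replicate 1, which leaves 3 libraries tagged P37 against 3 tagged P42, 18 were higher (0.944%, where 1.03% of all regions tested were) and 2 lower (0.105%, where 1.8% were). Deletion and tag cannot be told apart in those. In the main CatVII fit Rxra WT replicate 1 alone shares the tag P42 with the cKO libraries, so deletion and tag can hardly be told apart there either. The 0 calls in CatVII are therefore not read as the lack of an effect. Under corpses 0 passed as well, where 0.783% of 43025 regions were called higher and 0.395% lower, and 15 shared regions had an unadjusted p under 0.05. The median difference of the shared regions was 0.12 in CatVII, against 0.02 over all regions tested, and -0.01 under corpses, against -0.01. The difference between the 2 effects on the gap between promoters and other regions was -0.01 (exact permutation p = 0.846 over 1225 arrangements).

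BEL treatment of the corpses gave more calls. In Rxra WT cells 36 shared regions were higher with BEL-treated than with untreated corpses (1.89%) and 7 lower (0.367%), where 3.14% and 2.13% of 41571 regions were called. Both shares were under the background here. With pileup over the genome-wide background in place of the fold, 391 were higher (20.5%, where 12.7% of all were) and 39 lower (2.05%, where 11.4% were), so the reading for the higher regions turned around. With the replicate number as a block, which the main fit lacks, 53 were higher (2.78%, where 5.12% of all were) and 29 lower (1.52%, where 4.58% were). Without BEL replicate 1, 2 or 3, limma called 0 in either direction, and without BEL replicate 4 it called 12 higher and 0 lower. Without corpses replicate 3 there were 51 and 63, without replicate 1 31 and 2, without replicate 2 15 and 0, and without replicate 4 11 and 0. The calls therefore hang on single libraries. Promoters made up 32 of the 36 higher and 7 of the 7 lower regions, where 86.6% of all shared regions were promoters.

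The region with the greatest difference lay beside Rab11fip2, an effector of recycling endosomes, at the start of Gm4219. It had 4.30, 4.14, 4.23 and 3.93 with BEL and at most 3.41 in the 4 libraries without (0.95, SE 0.14, adjusted p = 0.014). Hivep3, a zinc finger gene, had 4.46, 4.63, 4.39 and 4.61 against 3.20, 3.52, 4.10 and 3.76 (0.88, SE 0.18, adjusted p = 0.0223), and Rnf146, a ubiquitin ligase gene, 4.25, 4.06, 4.31 and 3.96 against 3.31, 3.43, 3.33 and 3.23 (0.82, SE 0.13, adjusted p = 0.015). Mthfs, of folate metabolism, was 0.81 higher and Sft2d2, of Golgi transport, 0.81.

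Among the regions that fell, Gm72750 beside N4bp2 had 3.29, 3.61, 3.22 and 3.02 with BEL and 3.95, 4.23, 3.75 and 4.07 without (-0.72, SE 0.15, adjusted p = 0.0278). Gm63764, at the start of the transcription factor gene Maf, had 3.09, 3.13, 2.87 and 2.93 against 4.14, 3.86, 3.17 and 3.69 (-0.71, SE 0.18, adjusted p = 0.047). Rrbp1 (-0.59) and Rasa3 (-0.56) were lower as well. The shortest peaks noted above, and the tags Phago and NonPhago in the stored names, run through this comparison. With the tag as a term 75 were higher (3.93%, where 6.4% of all were) and 61 lower (3.2%, where 6.28% were).

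For AA, LPC and RA against corpses in Rxra WT, 0 shared regions passed in either direction, with 0% and 0% of 10038 regions called and 129 shared regions at an unadjusted p under 0.05. Without AA, LPC and RA replicate 1 the counts were 73 higher (3.83%, where 2.57% of all were) and 37 lower (1.94%, where 4.48% were), and the lone remaining library is taken to vary like the corpse libraries. The 2 replicates have an estimated 30861710 and 5753283 fragments. Both are tagged Phago in the stored names, whereas corpses replicates 1 and 2 are tagged NonPhago and 3 and 4 Phago. The part of the tag was not tested here.

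Corpse culture and CatVII in vivo, both Rxra WT, were compared, and the regions called higher were less often promoters than the shared regions as a whole. Of the 1907, 19 were higher in culture (0.996%, where 8.07% of 19188 regions were) and 55 lower (2.88%, where 6.43% were). Both shares were below the background. Of the 19 higher regions 12 lay outside promoters, and 9 of these held an AP-1 motif, whereas of the 55 lower regions 49 were promoters and 0 of the other 6 held that motif. Of all shared regions 86.6% were promoters, and AP-1 stood in 42% of the 255 others. The promoter share of the lower regions was thus near that of the whole set. Leaving out 1 library gave 6 to 57 higher and 15 to 78 lower, with 57 higher without CatVII Rxra WT replicate 1, 6 without corpses replicate 2, and 15 lower without CatVII Rxra WT replicate 3. In vivo and cultured libraries were barcoded in separate batches, so culture and batch cannot be told apart.

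Higher in culture were mainly introns and intergenic sites. Gm74957, at -6910 bp from that gene's start and near Npepl1, had 4.45, 4.44, 3.85 and 4.08 in culture and 3.42, 3.60, 3.12 and 2.86 in vivo (0.95, SE 0.20, adjusted p = 0.00598). Gm28706, near the actin nucleation gene Actr3, had 4.24, 3.91, 4.14 and 4.08 against 3.79, 3.17, 3.20 and 2.73 (0.87, SE 0.21, adjusted p = 0.0112). Gm68800, near the sodium pump subunit gene Atp1b3, had 4.30 to 4.42 in culture against 3.21 to 3.93 (0.79, SE 0.18, adjusted p = 0.0088). The promoter of Gm70902 near Smyd2 (0.77) and the region near Zfp703 printed above (0.72, SE 0.17, adjusted p = 0.0115), with 4.14, 4.20, 3.93 and 3.94 against 3.11, 3.50, 3.53 and 3.18, followed.

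Lower in culture were mainly promoters, as were the shared regions as a whole. Epg5, which acts in the fusion of autophagosomes with lysosomes, had 3.14, 3.44, 3.53 and 3.29 in culture and 4.41, 4.13, 4.07 and 4.16 in vivo (-0.85, SE 0.17, adjusted p = 0.00439). An intron of Sqstm1, the autophagy receptor p62, had 2.26, 2.64, 2.32 and 2.39 against 3.23, 3.47, 3.38 and 2.82 (-0.82, SE 0.18, adjusted p = 0.00813). Ate1, which marks proteins for breakdown by adding arginine, had 3.11, 3.38, 3.50 and 3.36 against 4.13, 4.04, 4.14 and 4.19 (-0.79, SE 0.16, adjusted p = 0.00531). The dynactin gene Dctn6 (-0.85, SE 0.18, adjusted p = 0.00536) and the protease gene Amz2 (-0.78) were lower too.

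**Figure D4:**
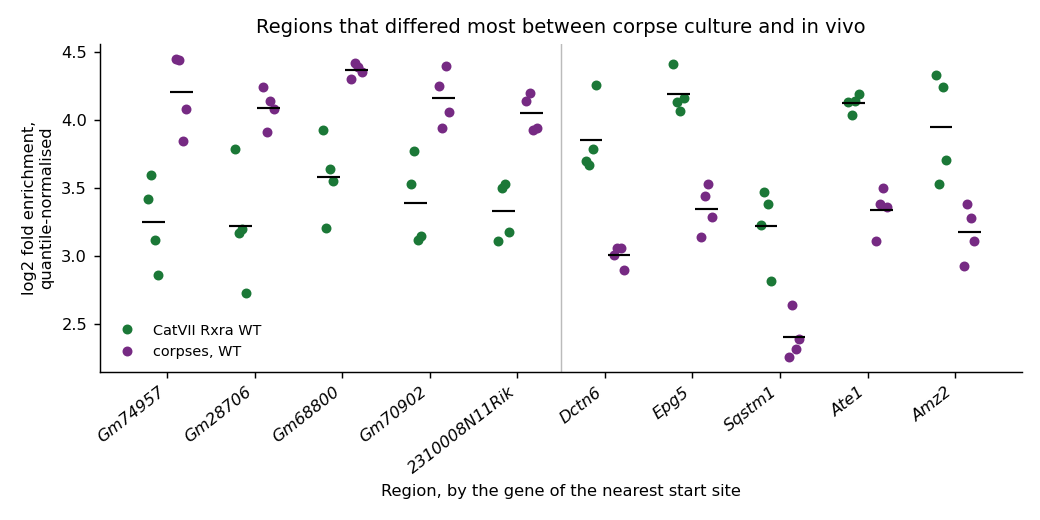
Quantile-normalised log2 fold enrichment in the 4 CatVII Rxra WT libraries (green) and the 4 Rxra WT corpse cultures (purple) at the 5 named regions that were higher and the 5 that were lower in culture, with bars at the group means. The regions were chosen among those without overlap between the groups, and differences run from 0.72 to 0.95 at the left and from -0.78 to -0.85 at the right.

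Against medium, 440 of the 1907 regions had a peak in both Rxra WT medium libraries and could be tested. Of these 42 were higher with corpses (9.55%) and 36 lower (8.18%), where 11.2% and 10.1% of 695 regions were called, of which the 440 are the larger part. Differences were up to 1.55 in size among the 36 lower regions, of which 16 were not of unique sequence, 19 aligned elsewhere and 20 lay outside promoters. Of the 440 tested, 84 lay outside promoters. Aplf, a DNA end-joining factor gene, had 4.07, 4.24, 4.32 and 4.23 with corpses and 2.76 and 3.51 in medium (1.08, SE 0.20, adjusted p = 0.00582), and the difference was 0.69 without medium replicate 3 and 1.44 without medium replicate 4. Leaving out 1 library gave 20 to 45 higher, the lowest without corpses replicate 4, and 16 to 47 lower. Fam83d, of the mitotic spindle, was 0.95 higher (0.41 without medium replicate 3), and Gm6712 near Riok2 (1.04), Gm36906 (1.00) and Gm75300 (0.95), which align elsewhere, were as well. On the other side Zfp78 had 3.10, 3.08, 2.99 and 3.03 with corpses against 3.89 and 3.97 (-0.88, SE 0.12, adjusted p = 0.0019). An intron of Ank3, which anchors membrane proteins to spectrin, had 3.39 to 3.91 against 4.39 and 4.51 (-0.86, SE 0.17, adjusted p = 0.0084). A region at -4184 bp from the start of Tmem125 (-1.08), which aligns elsewhere, Gm58682 beside Mex3c (-0.85) and 0610040F04Rik near Bhlhe40 (-0.81), a clock-related repressor gene, were lower too.

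Promoters and other shared regions were also set against each other within each library, as the median log2 fold of the 1652 promoter members less that of the 255 others. In vivo every library was positive, from 0.045 to 0.442. In culture with corpses it was -0.03 ± 0.05 (SD, n = 4) in Rxra WT and 0.05 ± 0.04 (n = 3) in Rxra cKO, and with BEL-treated corpses 0.04 ± 0.01 (n = 4). Rxra WT corpse culture had values of -0.093, -0.043, 0.028 and -0.024, and CatVII Rxra WT 0.319, 0.208, 0.153 and 0.164, which do not overlap. The difference was -0.24 (exact two-sided permutation p = 0.0286, the smallest that 4 against 4 can give, adjusted p = 0.1 over 7 comparisons). BEL-treated corpses, at 0.033, 0.046, 0.044 and 0.045, lay just above untreated corpses, by 0.08 (exact permutation p = 0.0286, adjusted p = 0.1). Neither passes after adjustment. With peaks of a −log10 q of at least 5 alone, the difference was -0.03 (exact permutation p = 0.8) for culture against in vivo and -0.09 (exact permutation p = 0.0857) for BEL. The other 5 comparisons gave differences of 0.07 to 0.12 with exact permutation p-values of 0.114 to 0.5, of which the smallest possible are 0.0571 to 0.133. They were 0.12 for CatVII against AnaVI, 0.07 for Rxra cKO against WT in CatVII and 0.08 under corpses, 0.09 for AA, LPC and RA against corpses, and 0.10 for corpses against medium.

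**Figure D5:**
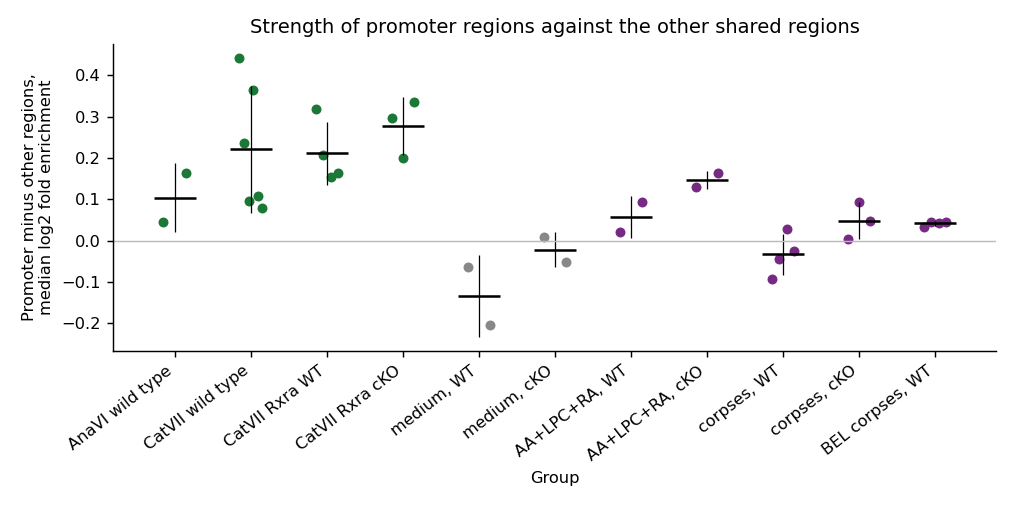
Median log2 fold enrichment of the 1652 promoter members less that of the 255 other shared regions (for medium, of those with a peak), 1 point a library, with the mean (bar) and SD (thin line) of each group. The 15 in vivo libraries (green) are all above 0, and the Rxra WT corpse libraries lie between -0.093 and 0.028.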

How the data were processed

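The deposited files were 34 narrowPeak lists, 1 per library. According to the labels and the study's methods, reads were placed on mm39 by the authors with BWA-MEM 0.7.18, who then used SAMtools 1.17, and called peaks in each replicate alone with MACS3 3.0.0 in paired-end mode, with no control library. The lists hold no reads per library. The deposited fold is a ratio, the pileup at the summit plus 1 over the local background plus 1. The deposited −log10 p-value and −log10 q-value come from the same caller, and the lowest −log10 q listed was 1.3. From fold and −log10 p, whole pileups were recovered within 0.1% in 100% of peaks, which gave estimated fragments of 2278742 to 64187357 per library. Lists hold 4144 to 129876 peaks.

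Peaks of the 30 libraries outside medium on 19 autosomes (1866070 peaks) were merged at an overlap of 1 bp. Each region took the fold of its strongest peak in each library. Genes came from GENCODE M39. A region of unique sequence had fewer than 10 other places per 25-base word and under 10% of words in the mitochondrial genome. Alignment to other places used BLAST 2.17.0, a check added after the data were seen. Log2 fold was quantile-normalised and tested with limma 3.58.1 in R 4.3.3 over every region with a peak in all libraries of both groups, with no pseudocount beyond the caller's own, at an adjusted p of 0.05. Pileup tells nothing of unlisted regions, so no count model was run. Other values used Python 3.11.15 and exact two-sided permutation tests. The procedures were tested on simulated data.

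Members and gene lists were chosen with earlier results of these data known. Named members were, by rule, the 10 strongest, 5 weakest, 5 least and 5 most variable of unique sequence, the 5 strongest of all, the 5 strongest of unique sequence outside promoters and the 5 strongest found in all 4 medium libraries. To these came the strongest unique region of each place, up to 10 for each gene list, and for each comparison the 5 called members of unique sequence with the greatest difference each way whose groups did not overlap. The strongest promoters and other regions that align nowhere else were added after the data were seen. A few members that the rule names are not reported here.

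Replicate numbers come from the sample titles. In the BEL comparison the deviations of same-numbered libraries correlated at 0.15 to 0.35 in all 4 pairs. In 2 of the 4 the highest correlation was with the library of the same number, so whether the numbers mark pairs is not settled. The main fit held no term for the replicate number, and a fit with it as a block was an alternative. Alternatives were median centring, pileup over the genome-wide background, regions above the median fold, a −log10 q of at least 5, a replicate block, a 500 bp promoter window, unique sequence, lists shortened to an equal length and leaving out each library. Chromosomes X and Y, the mitochondrial genome and unplaced sequences took no part.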

Additional observations from a re-analysis of the deposited data

Results flagged for a closer look

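In groups of 4 to 10 libraries, 1 library far from the others was seen for 2 of the values reported, and chance alone gives such a library in about 1 in 20 groups. At Sft2d2, BEL replicate 4 had a log2 fold of 3.60 where the other three had 3.94 to 3.95, a gap of 0.96 of the group's range. For the promoter members less the other members, BEL replicate 1 had 0.03, with a gap of 0.85 of a range that runs from 0.033 to 0.046. Outside the autosomes, 19 of 6269 regions on chromosome X and 16 of 548 on unplaced sequences had a peak in all 30 libraries, which the merged set did not include.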

How the results depend on the processing

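Counts of called regions are given as higher and lower. With pileup over the genome-wide background they were 78 and 68 for CatVII against AnaVI (4.09% and 3.57%, where 3.84% and 4.18% of all regions tested were). They were 2 and 10 for Rxra cKO under corpses (0.105% and 0.524%, where 3.09% and 2.73% were). For BEL they were 391 and 39 (20.5% and 2.05%, where 12.7% and 11.4% were). For culture against in vivo they were 63 and 253 (3.3% and 13.3%, where 16.2% and 15.7% were). With a −log10 q of at least 5, which leaves 544 shared regions, they were 8 and 0 for CatVII against AnaVI (1.47% and 0%, where 1.56% and 0% of all were). They were 7 and 1 for BEL (1.29% and 0.184%, where 2.62% and 1.82% were). For culture against in vivo they were 3 and 18 (0.551% and 3.31%, where 6.75% and 4.57% were). For corpses against medium they were 29 and 18 of 138 (21% and 13%, where 19.8% and 17.5% were). Among regions above the median fold there were 13 and 8 of 1063 for CatVII against AnaVI (1.22% and 0.753%, where 1.77% and 0.845% of all were). For BEL there were 69 and 44 of 1642 (4.2% and 2.68%, where 6.2% and 4.81% were). For culture against in vivo there were 24 and 84 of 1632 (1.47% and 5.15%, where 9.76% and 6.85% were). For corpses against medium there were 19 and 17 of 240 (7.92% and 7.08%, where 9.22% and 7.2% were). Median centring gave 23 and 22 for CatVII against AnaVI (1.21% and 1.15%, where 1.35% and 1.18% of all were). It gave 36 and 12 for BEL (1.89% and 0.629%, where 3.32% and 3.8% were). For corpses against medium it gave 26 and 47 of 440 (5.91% and 10.7%, where 7.05% and 12.4% were). The tag of the stored names as a term, added after the data were seen, gave 75 and 61 for BEL (3.93% and 3.2%, where 6.4% and 6.28% were). The cause was not tested. The counts with 1 library left out are given next without shares, so nothing about the shared regions is read from them. Leaving out 1 library gave 5 to 34 and 0 to 18 for CatVII against AnaVI, 0 to 18 and 0 to 2 for Rxra cKO in CatVII, 0 to 51 and 0 to 63 for BEL, 0 to 73 and 0 to 37 for AA, LPC and RA, 6 to 57 and 15 to 78 for culture against in vivo, and 20 to 45 and 16 to 47 for corpses against medium.

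With the replicate number as a block, calls were 14 and 16 for CatVII against AnaVI (0.734% and 0.839%, where 0.971% and 0.845% of all were). They were 53 and 29 for BEL (2.78% and 1.52%, where 5.12% and 4.58% were). For corpses against medium they were 11 and 18 (2.5% and 4.09%, where 3.45% and 6.76% were). In comparisons other than BEL the correlations of same-numbered libraries were -0.37 to 0.24, and no pairing was taken from them.

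Promoter members less the others reversed with a −log10 q of at least 5 for Rxra cKO under corpses (-0.03), BEL (-0.09) and AA, LPC and RA (-0.05), and was -0.03 for culture against in vivo, where pileup gave -0.17. It was 0.06 for BEL with a 500 bp window, and reversed for corpses against medium among members that align nowhere else (-0.02), where pileup gave 1.45 and a −log10 q of at least 5 gave 0.40. Leaving out 1 library gave 0.06 to 0.18 for CatVII against AnaVI, 0.04 to 0.11 and 0.06 to 0.10 for Rxra cKO in CatVII and under corpses, 0.06 to 0.10 for BEL, 0.06 to 0.13 for AA, LPC and RA, -0.26 to -0.21 for culture against in vivo and 0.03 to 0.17 for corpses against medium. The shared regions numbered 544 with a −log10 q of at least 5, 788 with a common stretch of 100 bp and 515 with lists of equal length (8046 peaks), where 89.9% were promoters, and 1907 to 2861 without 1 library, with 82.7 to 86.6% at promoters. Of 456 alternatives for 40 named differences, 141 were no longer called and 0 reversed. These regions were chosen because their groups did not overlap, so leaving out a library could hardly reverse them. Nothing is read from that 0.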
